A study of Mus musculus with 19 samples.

Results

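The genes described here are 10 markers of kidney tubule injury: Havcr1, Lcn2, Clu, Cp, Krt8, Krt18, Krt20, Sox9, Cdkn1a and Fgb. They were taken by symbol from a kidney count table of 40413 genes, and all 10 were found there. All 10 were also among the 16421 genes with enough counts to be tested. They were chosen by name, with no threshold on measured values, and each is described in every group.

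Polyadenylated RNA came from kidneys of adult mice, 1 library per mouse. BPH/2J is an inbred strain with high blood pressure, a hypertension that the study calls neurogenic, and BPN/3J is its companion strain with normal pressure. Cmpd17b, which the study used to activate formylpeptide receptors, was injected intraperitoneally once a day at 50 mg/kg/day over 28 days, and control mice received vehicle. The groups used here held 4 BPN/3J mice on vehicle, 5 BPN/3J mice on Cmpd17b, 5 BPH/2J mice on vehicle and 4 BPH/2J mice on Cmpd17b. The labels name no mutation or transgene and do not say which region of the kidney was taken. Since each blood pressure class is 1 inbred strain, blood pressure and genetic background cannot be told apart.

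Tubule epithelium that is stressed or damaged switches on a set of genes that healthy tubule cells hold low. Some of their products are shed or secreted into urine, among them kidney injury molecule 1 (the product of Havcr1) and neutrophil gelatinase-associated lipocalin (the product of Lcn2), and serve as clinical markers. Others act inside the cell, as cytoskeletal keratins, as the repair transcription factor Sox9 or as the cell cycle inhibitor p21, the product of Cdkn1a.

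A further library of the BPH/2J Cmpd17b group, its replicate 1, was left out, since it held a heart profile. Its Myh6 level was 14199.9 CPM (counts of a gene scaled to a common library total), whereas Havcr1 stood at 0.194 CPM and Krt8 at 0.323 CPM in it. In the other 18 libraries total counts ran from 21400119 to 40998662, and none of the 12 proximal tubule markers was at 0. Their sum ran from 30836 to 78968 CPM. Mitochondrial transcripts made up 12.8% to 16.3% of counts in BPN/3J libraries and 16.0% to 26.6% in BPH/2J libraries. By library number the samples form 4 blocks that match the 4 groups, so an effect of that order and a group effect cannot be told apart. Values below are CPM after TMM scaling, which corrects for library size and composition, and are listed in the order of the replicate numbers (1 to 4 or 1 to 5, and 2 to 5 for BPH/2J mice on Cmpd17b).

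Upstream sequences are shown for Cp, whose level differed most firmly between the strains, and for Krt8 and Krt18, partner genes whose levels varied together from mouse to mouse. They are the RefSeq reference sequence of build GRCm38.p6, not that of BPN/3J or BPH/2J mice. Each begins 250 bases before an annotated start and ends before any annotated exon of its gene. The Krt8 and Krt18 stretches therefore stop short of the start. The Cp stretch lies on the plus strand at chr3:19956804-19957053, the Krt8 stretch on the minus strand at chr15:102004483-102004592 and the Krt18 stretch on the plus strand at chr15:102027966-102028179. Capitals mark motif matches.
Cp: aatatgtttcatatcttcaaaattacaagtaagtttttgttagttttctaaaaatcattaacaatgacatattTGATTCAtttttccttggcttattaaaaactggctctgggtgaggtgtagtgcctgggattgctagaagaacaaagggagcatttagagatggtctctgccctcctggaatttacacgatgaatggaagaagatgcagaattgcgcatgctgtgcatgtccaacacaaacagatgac
Krt8: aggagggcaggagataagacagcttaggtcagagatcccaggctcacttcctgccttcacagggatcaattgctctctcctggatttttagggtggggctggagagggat
Krt18: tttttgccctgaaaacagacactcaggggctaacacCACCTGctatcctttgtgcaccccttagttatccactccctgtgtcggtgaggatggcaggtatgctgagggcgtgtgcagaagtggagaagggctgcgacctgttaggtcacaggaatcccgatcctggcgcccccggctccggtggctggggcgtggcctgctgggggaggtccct
In the Cp stretch the capitals are an AP-1 motif (TGANTCA) at positions -177 to -171 from the first of 2 annotated Cp starts. Of 32851 RefSeq promoter windows of 250 bases, 6.75% hold such a motif. In the Krt18 stretch the capitals are a CACCTG motif at positions -214 to -209, found in 15.2% of windows of 214 bases. No match was found in the 110 bases printed for Krt8. A CACCTG match lies downstream of them, nearer the start, at positions -111 to -106. The other motifs searched, on both strands, were the TATA box (TATAAA), the STAT motif (TTCNNNGAA), the CCAAT box, the GC box (GGGCGG) and the NF-kB motif. The window of the second Cp start holds a CCAAT box at -118 to -114. It also holds TATA box matches at -27 to -22 and -25 to -20. These lie outside the printed bases. RefSeq windows were found for 8 of the 10 genes, without Clu and Sox9. A match is a match of letters and shows no binding.

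The first comparison asked whether the markers differ between hypertensive and normotensive kidneys when no compound is given. Clu and Cp were higher in BPH/2J than in BPN/3J mice, 2.14-fold and 3.23-fold, and the other 8 markers did not pass the test. All 10 estimates lay above 0, with a median log2 fold change of 1.02 against 0.04 for all genes tested. Without BPH/2J vehicle replicate 2, 8 of the 9 markers still tested lay above 0 and their median was 0.64, with Sox9 at -0.08. With replicates 1, 3 and 5 alone, 6 of 9 lay above 0 and the median was 0.36, with Lcn2, Sox9 and Cdkn1a below 0. Krt20 had too few counts to be tested in both fits. In this comparison 10.8% of all genes were called at an adjusted p under 0.05 (edgeR's quasi-likelihood test, Benjamini-Hochberg), 5.82% as higher. For both genes the groups did not overlap, as was so for 13.6% of all genes. An unadjusted p under 0.05 was reached by 5 of the 10 markers, against 23.9% of all genes. DESeq2 called 3 markers, and 2343 of all 16399 genes it tested.

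Among the secreted markers, Cp encodes ceruloplasmin, a copper-bearing ferroxidase of plasma. Cp stood at 23.2, 12.0, 20.9 and 20.8 CPM in BPN/3J mice on vehicle. In BPH/2J mice on vehicle Cp stood at 46.5, 89.4, 50.7, 82.3 and 42.0 CPM. Every BPH/2J library was above every BPN/3J library, and replicates 2 and 4 were clearly above the other 3. The group means were 19.2 ± 4.93 CPM (SD, n = 4) and 62.2 ± 22.0 CPM (SD, n = 5), a log2 fold change of 1.69 with a standard error of 0.26 and an adjusted p of 0.000272 by edgeR. With BPH/2J replicates 1, 3 and 5 alone the log2 fold change was 1.27 (edgeR adjusted p = 0.003428).

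Clu encodes clusterin, an extracellular chaperone that binds unfolded proteins. Clu was at 111, 104, 122 and 94.8 CPM in BPN/3J mice on vehicle. In BPH/2J mice on vehicle Clu was at 239.6, 366, 229, 149 and 172 CPM. The groups did not overlap, although the lowest BPH/2J library, replicate 4, was within 30 CPM of the highest BPN/3J library. The means were 108 ± 11.6 (SD, n = 4) and 231 ± 84.6 CPM (SD, n = 5), with a log2 fold change of 1.10, a standard error of 0.21 and an edgeR adjusted p of 0.002.

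Lcn2, whose product binds iron-carrying siderophores, had the same estimated log2 fold change as Cp to 2 decimals, 1.69, with an edgeR adjusted p of 0.09165. Its values in BPN/3J mice on vehicle were 1.51, 0.909, 1.34 and 0.723 CPM. Its values in BPH/2J mice on vehicle were 0.756, 11.5, 1.04, 3.21 and 1.56 CPM. Replicate 2 alone stood at 11.8 times the median of the other 17 libraries, and replicates 1, 3 and 5 lay within or next to the BPN/3J range. Without replicate 2 the log2 fold change was 0.56 (edgeR adjusted p = 0.437), and with replicates 1, 3 and 5 alone it was -0.01 (edgeR adjusted p = 0.9884). Lcn2 was called by DESeq2 (adjusted p = 0.03461), and by edgeR when BPH/2J vehicle replicate 1 was left out (adjusted p = 0.0309).

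Havcr1 encodes a surface receptor through which injured proximal tubule cells take up dying cells. In BPN/3J mice on vehicle Havcr1 was at 28.9, 12.2, 28.9 and 6.03 CPM. In BPH/2J mice on vehicle it was at 24.5, 64.7, 25.4, 44.7 and 23.4 CPM. The ranges overlapped, since 2 BPN/3J libraries stood above 3 BPH/2J libraries. The log2 fold change was 0.94 with a standard error of 0.43 (edgeR adjusted p = 0.1878), and 0.36 with replicates 1, 3 and 5 alone.

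**Figure D1:**
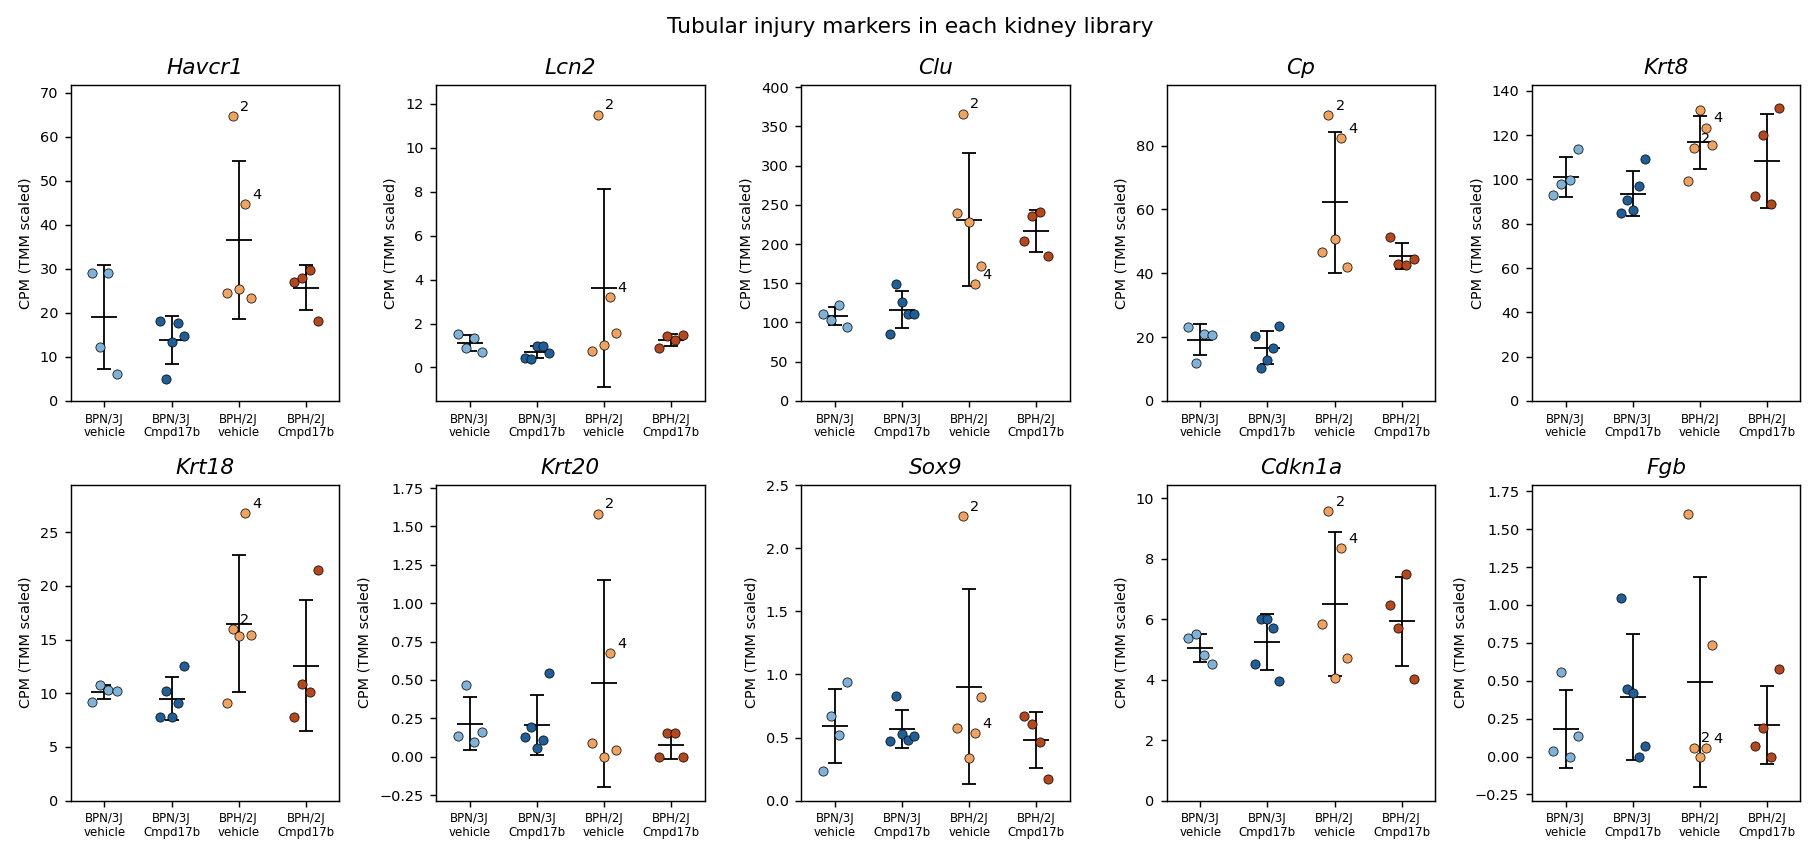
Level of each of the 10 markers in CPM after TMM scaling (vertical axes, separate scale per gene) in the 18 libraries by group. Points are mice, horizontal bars group means and whiskers 1 SD, and the numbers mark replicates 2 and 4 of BPH/2J on vehicle. Cp and Clu in BPH/2J mice lie above all BPN/3J mice of the same treatment, while Lcn2 reaches 11.5 CPM in replicate 2 only.

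Krt8 and Krt18 encode the paired keratins of simple epithelia. Krt18 was at 9.21, 10.7, 10.3 and 10.2 CPM in BPN/3J mice and at 9.10, 15.9, 15.3, 26.7 and 15.4 CPM in BPH/2J mice on vehicle. Thus 4 of 5 BPH/2J libraries were above all BPN/3J libraries, and 1 was below them. The log2 fold change was 0.71 with a standard error of 0.28 (edgeR adjusted p = 0.12). Leaving out BPH/2J vehicle replicate 1 gave an edgeR adjusted p of 0.03735, and leaving out BPH/2J Cmpd17b replicate 5 gave 0.04184. Leaving out BPH/2J vehicle replicate 4 lowered the log2 fold change of Krt18 to 0.46 (edgeR adjusted p = 0.3284), and with replicates 1, 3 and 5 alone it was 0.39 (edgeR adjusted p = 0.4508). Krt8 was far more even, at 101 ± 8.92 (SD, n = 4) and 117 ± 12.0 CPM (SD, n = 5), a log2 fold change of 0.21 (edgeR adjusted p = 0.3358). Krt8 values are uncertain, since the annotation holds a Krt8 pseudogene and a predicted gene on the opposite strand of Krt8.

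Cdkn1a, Sox9, Krt20 and Fgb did not pass the test. Cdkn1a was at 5.38, 5.51, 4.81 and 4.53 CPM in BPN/3J mice and at 5.83, 9.58, 4.07, 8.35 and 4.71 CPM in BPH/2J mice on vehicle, with replicates 2 and 4 again the highest. Sox9 was under 1 CPM in all libraries but BPH/2J vehicle replicate 2, which had 2.26 CPM. Krt20, a keratin of urothelium that injured tubule cells also express, reached 1.58 CPM in that library and 0.675 CPM in replicate 4, whereas replicates 1, 3 and 5 had at most 0.0907 CPM. Without replicate 2 or without replicate 4, Krt20 no longer had enough counts to be tested. Fgb, the beta chain of fibrinogen, ranged from 0 to 1.60 CPM, and its fold changes, like those of Krt20, rest on libraries with 0 counts. The log2 fold changes were 0.37 for Cdkn1a, 0.61 for Sox9, 1.19 for Krt20 and 1.43 for Fgb, with edgeR adjusted p of 0.3591, 0.4919, 0.4899 and 0.5205. Single libraries moved these values. Fgb ranged from 0.13 without BPH/2J vehicle replicate 1 to 3.05 without BPN/3J vehicle replicate 2. Sox9 fell to -0.08 and Cdkn1a to 0.19 without BPH/2J vehicle replicate 2, whereas dropping BPN/3J vehicle replicate 4 gave Sox9 its highest value, 0.92, and dropping BPH/2J vehicle replicate 3 gave Cdkn1a its highest, 0.498. In the 15 refits that could test it, Krt20 ranged from 0.93 without BPN/3J vehicle replicate 3 to 1.89 without BPN/3J vehicle replicate 2.

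Levels can be compared between genes only per length. The length used was that of all annotated exons of a gene, merged over its transcripts (9566 bases for Cp, 2623 for Lcn2). It can exceed the length of any 1 transcript, so the order of genes given here is approximate. Per kilobase of exon, Clu and Krt8 led in both strains, with 31.4 and 51.7 CPM per kilobase in BPN/3J and 67.2 and 59.6 in BPH/2J mice on vehicle, so their order differed between the strains. Havcr1 followed with 8.23 and 15.8 CPM per kilobase and Krt18 with 7.04 and 11.5. Cp stood at 2.01 and 6.499, Cdkn1a at 1.42 and 1.83 and Lcn2 at 0.428 and 1.38 CPM per kilobase. Sox9, Krt20 and Fgb were at 0.248 CPM per kilobase or less in every group. The exon lengths came from an annotation of an earlier build.

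Markers of other cells also differed between the strains on vehicle, and their part in the marker differences was not tested. Of 6 podocyte markers 5 were called higher in BPH/2J mice, and their summed level ran from 91.7 to 119 CPM in BPN/3J and from 159 to 226 CPM in BPH/2J mice on vehicle. All 4 smooth muscle markers were called higher, with sums of 25.4 to 40.4 and 44.8 to 123 CPM. Of all genes, 5.82% were called higher. None of the 12 proximal tubule markers was called, and their sums overlapped. In RNA of whole tissue, more cells of a type and more RNA per cell cannot be told apart. Cp shares its locus with Hps3 on the opposite strand, and Cdkn1a shares its locus with the annotated gene AC167363.2 on the opposite strand. Whether counting used strand is not given in the sources used here. Hps3 was lower in BPH/2J mice on vehicle, at 49.0 ± 2.62 (SD, n = 4) against 38.1 ± 6.13 CPM (SD, n = 5, log2 fold change -0.36, edgeR adjusted p = 0.03839), and the part of Hps3 reads in the Cp counts was not tested.

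Within the group of BPH/2J mice on vehicle, replicates 2 and 4 stood apart. Replicate 2 was the highest of all 18 libraries in 7 of the 10 markers: Havcr1, Lcn2, Clu, Cp, Krt20, Sox9 and Cdkn1a. Replicate 4 was the highest in Krt18 and the second highest in Havcr1, Lcn2, Cp, Krt20 and Cdkn1a, but ranked 10 of 18 in Clu and 9 of 18 in Sox9. Replicates 1, 3 and 5 had means of 24.5 ± 0.986 CPM for Havcr1, 1.12 ± 0.406 CPM for Lcn2 and 46.4 ± 4.36 CPM for Cp (SD, n = 3 each).

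The libraries of these mice also differed in other cell markers. Replicate 4 was the highest of all 18 in all 8 urothelium markers, with a sum of 77.0 CPM against at most 11.3 CPM elsewhere, and replicate 2 had 6.21 CPM. Upk1a, a plaque protein of urothelium, was at 17.1 CPM in replicate 4 and at most 2.26 CPM elsewhere. Replicate 4 was also the highest in all 5 inner medulla and papilla markers measured, with a sum of 625 CPM against at most 290.4 CPM elsewhere. Its fat cell markers summed to 237 CPM, close to the 233 CPM of BPN/3J Cmpd17b replicate 1, and the rest had at most 74.7 CPM. Replicate 2 showed none of these 3 sums above all other libraries. Of 7 macrophage and leukocyte markers, 3 were highest in replicate 2, as many as in BPN/3J Cmpd17b replicate 5. Their sum was 58.4 CPM in replicate 2 and 63.8 CPM in replicate 4. The part of these cells in the marker levels of replicates 2 and 4 was not tested.

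**Figure D2:**
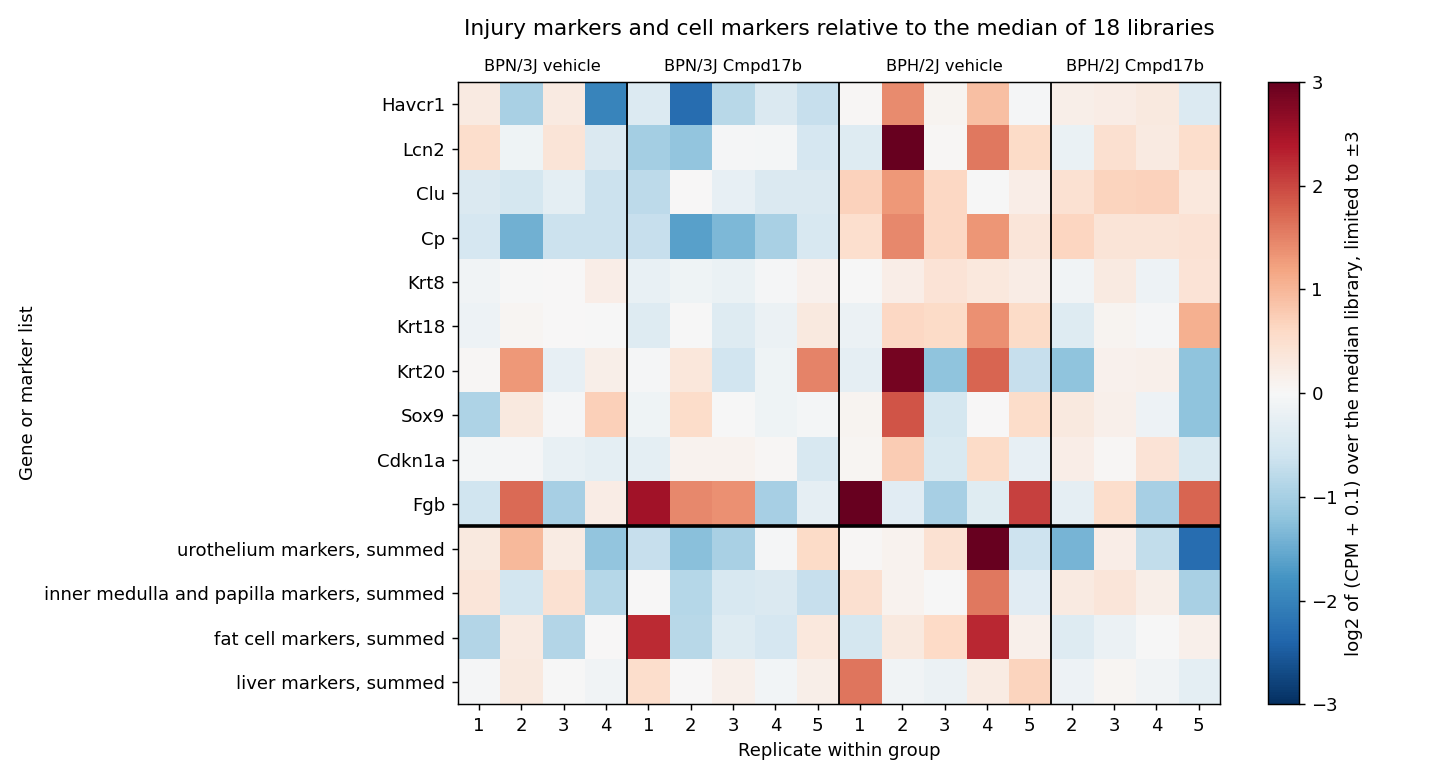
Map of the 10 markers (upper rows) and of 4 summed cell marker lists (lower rows) in the 18 libraries (columns, by group and replicate), as log2 of CPM plus 0.1 over the median library, with colours limited to 3 either way. Replicate 2 of BPH/2J on vehicle is high in Lcn2, Krt20 and Sox9 with urothelium markers near the median, while replicate 4 is high in the urothelium, inner medulla and fat cell lists.

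The second comparison set the strains against each other under Cmpd17b. Clu and Cp were again higher in BPH/2J mice, 1.86-fold and 2.72-fold, and the other 8 markers did not pass the test. The called share of all genes was 10.4%, of which higher calls made up 5.71% of all genes. Of the 10 estimates 7 were above 0, with a median of 0.31 against 0.01 for all genes. An unadjusted p under 0.05 was reached by 3 markers, against 24.1% of all genes. DESeq2 called 2 markers, and 2251 of all 16399 genes it tested.

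Under Cmpd17b, Cp was at 20.2, 10.46, 12.8, 16.6 and 23.4 CPM in BPN/3J mice and at 51.3, 43.0, 42.5 and 44.4 CPM in BPH/2J mice. The lowest BPH/2J library was thus well above the highest BPN/3J library, and the BPH/2J mice lay close together. Its log2 fold change was 1.44 with a standard error of 0.25 (edgeR adjusted p = 0.0007997). Clu was at 85.8, 149.6, 126, 110.4 and 110.5 CPM in BPN/3J mice and at 204, 236, 241 and 185 CPM in BPH/2J mice on Cmpd17b. These ranges did not overlap either, and the log2 fold change was 0.89 with a standard error of 0.21 (edgeR adjusted p = 0.007612).

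Havcr1 was at 18.2, 4.87, 13.5, 17.8 and 14.8 CPM in BPN/3J mice and at 27.0, 27.8, 29.6 and 18.2 CPM in BPH/2J mice on Cmpd17b. The groups just failed to overlap, with 18.159 CPM as the highest BPN/3J and 18.164 CPM as the lowest BPH/2J value. The log2 fold change of 0.90 had an edgeR adjusted p of 0.2059. Groups did not overlap for 12.8% of all genes in this comparison, and for 3 of the 10 markers. Lcn2 was at 0.444, 0.387, 0.977, 0.960 and 0.679 CPM in BPN/3J mice and at 0.870, 1.44, 1.25 and 1.499 CPM in BPH/2J mice on Cmpd17b, with an overlap and an edgeR adjusted p of 0.4264. The remaining 6 markers had log2 fold changes from -1.31 for Krt20 to 0.40 for Krt18 and edgeR adjusted p from 0.3191 to 0.8406.

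The 4 BPH/2J libraries on Cmpd17b held traces of heart transcripts, with heart marker sums of 108 to 158 CPM against at most 9.04 CPM in the other groups. The library that was left out held 342 CPM of Clu and 145 CPM of Cp before TMM scaling. Mean Myh6 in the 4 libraries was 28.6 CPM, 0.201% of its level in the library left out. At this percentage, the Clu and Cp levels of that library would correspond to 0.689 and 0.292 CPM. The means of Clu and Cp in the 4 libraries were 216 and 45.3 CPM. The part of heart RNA in these levels was not tested.

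The third comparison asked whether Cmpd17b changed the markers in hypertensive mice. None of the 10 markers passed the test, and all had an edgeR adjusted p of 1. All 10 estimates were below 0, with a median log2 fold change of -0.48 against -0.01 for all genes. Without vehicle replicate 2, 2 of the 9 markers still tested were above 0 and the median was -0.20, and with vehicle replicates 1, 3 and 5 alone 4 of 9 were above 0 and the median was -0.03. Of all genes 0.164% were called, among them 7 of the 8 heart markers, which were higher. An unadjusted p under 0.05 was reached by 2 markers, Lcn2 and Krt20, against 3.70% of all genes, and DESeq2 called 0. No marker's groups failed to overlap, against 0.932% of all genes.

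The estimates were -1.53 for Lcn2 (95% interval -2.83 to -0.23), -2.56 for Krt20 (-5.01 to -0.12), -0.89 for Sox9 (-1.98 to 0.21) and -0.51 for Havcr1 (-1.41 to 0.39). Lcn2 averaged 3.62 ± 4.52 CPM (SD, n = 5) on vehicle and 1.26 ± 0.284 CPM (SD, n = 4) on Cmpd17b. The treated mice thus lay inside the range of vehicle replicates 1, 3 and 5, which was 0.756 to 1.56 CPM. With only these 3 vehicle mice the log2 fold changes were 0.18 for Lcn2, 0.07 for Havcr1, 0.02 for Clu and 0.29 for Cdkn1a, all with an edgeR adjusted p of 1. When 1 library at a time was left out, Havcr1 stayed between -0.63 and -0.20 and Lcn2 between -1.79 and -0.39, with the value nearest 0 in each case without vehicle replicate 2. Clu reversed to 0.14 and Cdkn1a to 0.047 without vehicle replicate 2, and Cdkn1a was at 0.0058 without Cmpd17b replicate 5. In Clu, vehicle replicate 4 was the lowest vehicle mouse and lay below all 4 treated mice. For Krt20 the 4 treated mice had 0, 0.151, 0.156 and 0 CPM, levels of a few counts at most.

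Clu and Cp, the markers that differed between the strains, had narrower intervals. Clu had a log2 fold change of -0.09 (95% interval -0.53 to 0.34) and Cp one of -0.46 (-0.99 to 0.08). For Krt8 the value was -0.11 (-0.37 to 0.16), for Krt18 -0.40 (-0.98 to 0.18) and for Cdkn1a -0.13 (-0.63 to 0.36). Fgb was at -1.36 (-4.12 to 1.41), the widest of these intervals.

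In BPN/3J mice Cmpd17b left all 10 markers uncalled as well, every edgeR adjusted p being 1, and 0% of all genes were called. No marker reached an unadjusted p under 0.05, against 2.53% of all genes, and DESeq2 called 0. Estimates were above 0 for 3 of the 10, and the median was -0.08 against 0.00 for all genes. Havcr1 averaged 19.01 ± 11.7 CPM (SD, n = 4) on vehicle and 13.8 ± 5.38 CPM (SD, n = 5) on Cmpd17b, a log2 fold change of -0.46 (95% interval -1.36 to 0.43). Lcn2 averaged 1.12 ± 0.368 (SD, n = 4) and 0.689 ± 0.277 CPM (SD, n = 5), a log2 fold change of -0.70 (-2.01 to 0.60). Clu was at 108 ± 11.6 (SD, n = 4) and 117 ± 23.5 CPM (SD, n = 5), and Cp at 19.2 ± 4.93 (SD, n = 4) and 16.7 ± 5.29 CPM (SD, n = 5). No marker's groups failed to overlap, against 1.78% of all genes.

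Whether the response to Cmpd17b differed between the strains was tested by the interaction. No marker was called, each with an edgeR adjusted p of 0.9999, and 0.0304% of all genes were. The genes called, 5 in all, were all heart markers. No marker reached an unadjusted p under 0.05, against 3.22% of all genes, and DESeq2 called 0. The comparisons share groups with each other, so their values are not independent.

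**Figure D3:**
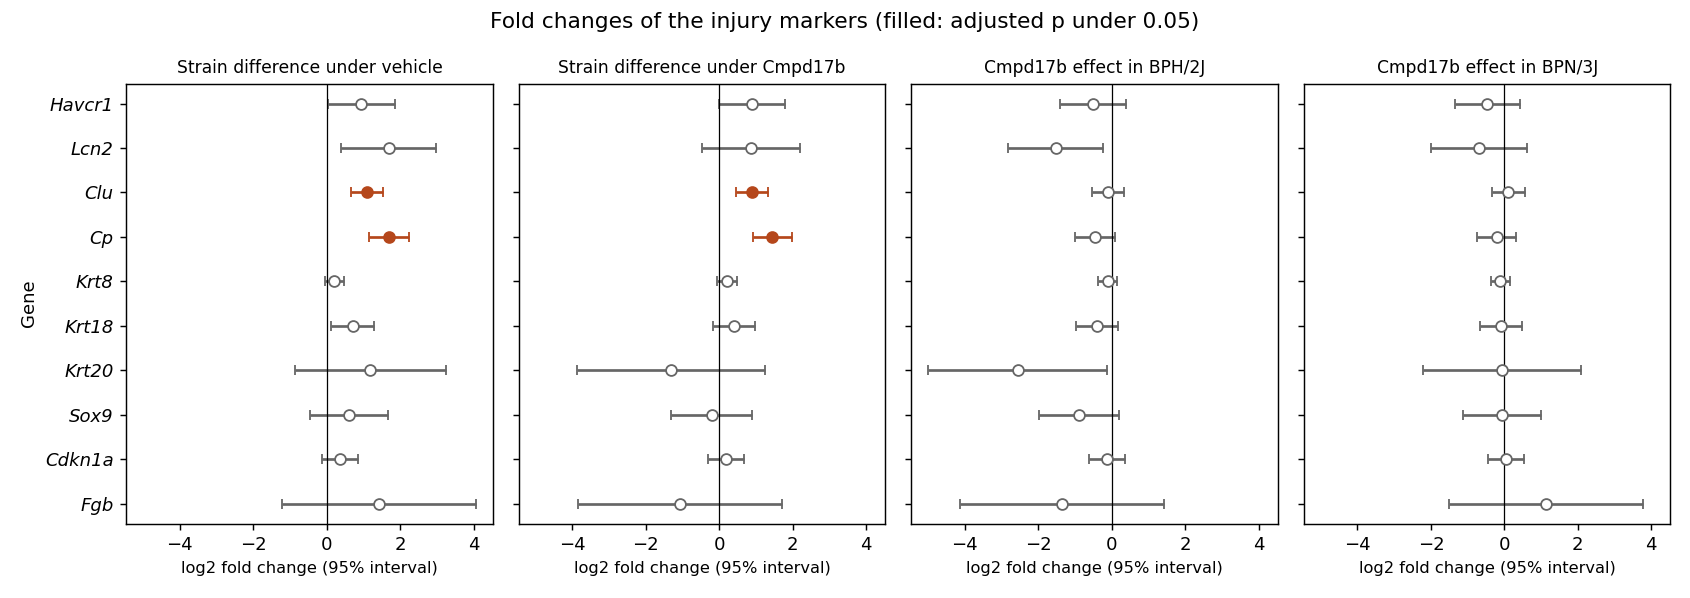
Log2 fold changes of the 10 markers (horizontal axes, with 95% intervals) in the 4 comparisons, from edgeR. Filled points passed an adjusted p under 0.05, which only Clu and Cp did, in both strain comparisons. Intervals of Krt20 and Fgb, the lowest genes, are the widest.

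Markers were also compared with each other from mouse to mouse, as deviations from their group means over the 18 libraries, with libraries permuted within groups. Of 45 pairs, Krt8 with Krt18 had the highest Pearson r, 0.742 (permutation p = 0.0020, adjusted p = 0.044, Spearman rho 0.699, permutation p = 0.0043, adjusted p = 0.17). Havcr1 with Lcn2 had an r of 0.635 (permutation p = 0.0019, adjusted p = 0.044, rho 0.662, permutation p = 0.011, adjusted p = 0.17). Without the 2 libraries farthest from the median in the first gene of the pair, r was 0.598 and 0.668. Without BPH/2J vehicle replicates 2 and 4 it was 0.812 and 0.551. The relation thus passed adjustment by Pearson's r in 2 pairs and by Spearman's rho in 0. Clu and Cp, both higher in BPH/2J mice, had an r of -0.08 within groups.

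**Figure D4:**
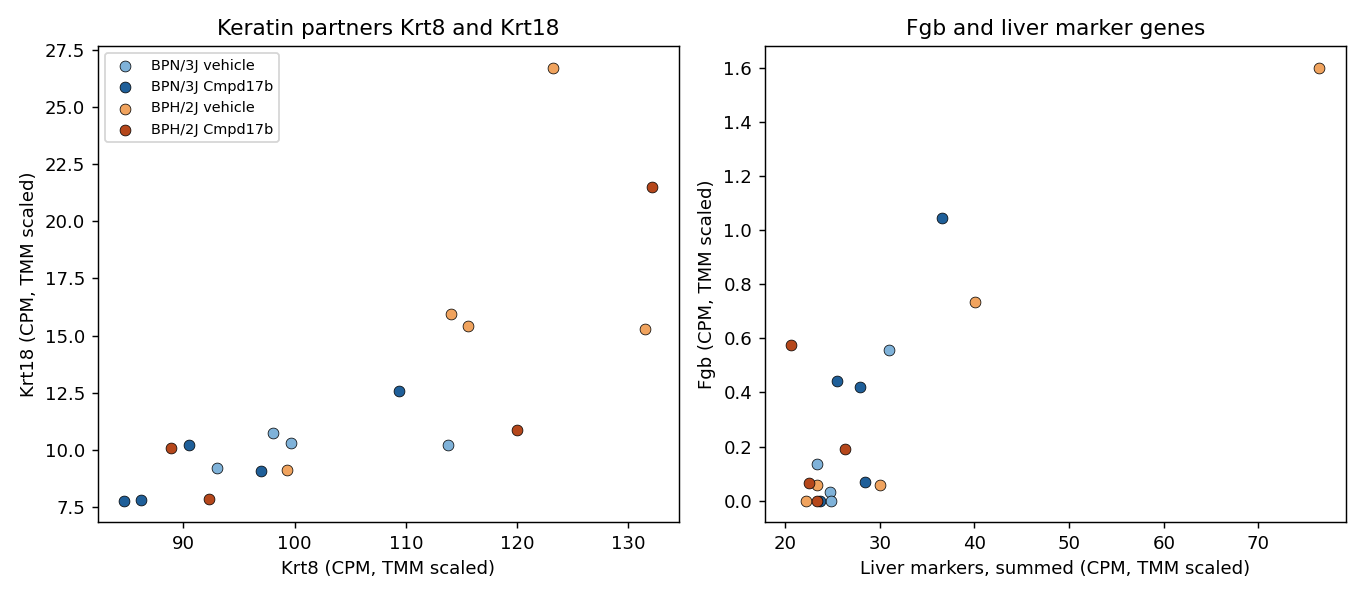
Left, Krt18 against Krt8 in CPM, where the libraries with more Krt8 also have more Krt18. Right, Fgb against the summed CPM of 8 liver markers, which include its fibrinogen partners Fga and Fgg. Points are the 18 libraries, coloured by group, and the library with the most Fgb, at 1.60 CPM, is also that with the most liver marker RNA, at 76.4 CPM.

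Fgb is made mainly in liver. Liver markers summed to 76.4 CPM in BPH/2J vehicle replicate 1, the library with the most Fgb, and to 20.6 to 40.0 CPM in the other 17. These markers include Ahsg and the fibrinogen partners of Fgb, Fga and Fgg. Alb, the albumin gene, was at 36.6 CPM in that library and at most 12.1 CPM elsewhere. The 3 genes most like Fgb over the 18 libraries, by Pearson r of log2 CPM, were Serpina3k (0.885), Cyp3a11 (0.843) and Ahsg (0.840), all known as liver genes. The part of liver RNA in Fgb was not tested. The fibrinogen partners Fga and Fgg were not called between the strains on vehicle (log2 fold changes 0.37 and 0.29, edgeR adjusted p = 0.474 and 0.4917).

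For the other markers the most similar genes, by the same measure, were as follows. Cp was most like Spon1 (0.953), Capg (0.943) and Nim1k (0.930), and Clu most like C1ql3 (0.944), Gusb (0.927) and Cptp (0.909). These r include the strain difference. Havcr1 was next most like Slc14a1 (0.897, Spearman rho 0.915), a urea transporter of the renal medulla. Inner medulla and papilla markers summed to 267, 141, 286 and 115 CPM in BPN/3J mice on vehicle, in which Havcr1 was at 28.9, 12.2, 28.9 and 6.03 CPM, so the same 2 libraries were high in both. In BPH/2J mice on vehicle the sums were 290.4, 224, 207, 625 and 163 CPM, with Havcr1 at 24.5, 64.7, 25.4, 44.7 and 23.4 CPM. There the highest Havcr1, in replicate 2, and the highest sum, in replicate 4, were in different libraries. The part of inner medulla in the Havcr1 levels was not tested. Krt8 was most like Efna4 (0.945), Krt18 most like S100a6 (0.907), Havcr1 most like Nek6 (0.910), Lcn2 most like Hspb1 (0.879), Cdkn1a most like Ilvbl (0.920), Sox9 most like Lhfpl2 (0.837) and Krt20 most like Cldn4 (0.851). Krt20 was next most like Lyz2 (0.817) and Cd68 (0.790), and Sox9 next most like Fcgr3 (0.808). Cd68 is among the macrophage and leukocyte markers. All these points share library depth and group.

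Other genes of injury and repair gave more higher than lower values in BPH/2J mice on vehicle. Of 29 tested, 6 were called higher and 1 lower, 27 estimates were above 0 and the median log2 fold change was 0.75. DESeq2 called 11 higher and 1 lower. In this comparison edgeR called 10.8% of all genes, and DESeq2 called 2343 of 16399. Dcdc2a rose from 8.69 ± 1.20 (SD, n = 4) to 15.9 ± 4.69 CPM (SD, n = 5), a log2 fold change of 0.87 (edgeR adjusted p = 0.004714). Vim, the intermediate filament of mesenchymal and injured epithelial cells, was at 20.1 ± 2.15 (SD, n = 4) and 44.7 ± 16.9 CPM (SD, n = 5), a log2 fold change of 1.15 (edgeR adjusted p = 0.01142). Anxa2 had a log2 fold change of 1.0003 (edgeR adjusted p = 0.009955). Plin2, which coats lipid droplets, went the other way, from 66.7 ± 4.82 (SD, n = 4) to 18.4 ± 6.56 CPM (SD, n = 5), a log2 fold change of -1.86 (edgeR adjusted p = 2.068e-06). These 4 calls were kept without any 1 of the 18 libraries, while those of the other 3 were lost in 4 to 6 of the 18 refits. Without BPH/2J vehicle replicate 2 the counts were 3 higher and 1 lower of 28 tested and the median was 0.50. With replicates 1, 3 and 5 alone they were 1 higher (Vim) and 1 lower (Plin2), with 22 of 29 estimates above 0 and a median of 0.27.

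Under Cmpd17b the same list had 1 higher call, Vim, and 1 lower call, Plin2, and its median was 0.21. Of all genes, 10.4% were called in that comparison. Vim's call, with an edgeR adjusted p of 0.04972, held in 6 of 18 refits and reached an adjusted p of 0.2478 without BPH/2J Cmpd17b replicate 5. The Cmpd17b comparisons called 0 of the 29 in either strain. In BPH/2J mice 3 of 29 estimates were above 0 and the median was -0.35, and with vehicle replicates 1, 3 and 5 alone 17 of 29 were above 0 and the median was 0.05.

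Iron and copper handling genes, the setting in which Cp and Lcn2 act, differed in both directions. Of 12 tested, 2 were called higher and 3 lower in BPH/2J mice on vehicle, and 2 higher and 2 lower on Cmpd17b. The called share of all genes was 10.8% on vehicle and 10.4% on Cmpd17b. Slc22a17, the receptor for the Lcn2 product, was at 19.9 ± 1.54 (SD, n = 4) and 30.9 ± 3.90 CPM (SD, n = 5) on vehicle, a log2 fold change of 0.63 (edgeR adjusted p = 0.0003701). Ftl1, the ferritin light chain, had log2 fold changes of 1.49 on vehicle and 1.59 on Cmpd17b (edgeR adjusted p = 0.0004166 and 0.0001278). Atp7b, the transporter that loads copper onto ceruloplasmin in liver, fell from 14.03 ± 2.36 (SD, n = 4) to 2.52 ± 0.743 CPM (SD, n = 5) on vehicle, a log2 fold change of -2.48 (edgeR adjusted p = 1.353e-05). Tfrc, the transferrin receptor, had a log2 fold change of -1.08 on vehicle (edgeR adjusted p = 0.001964) and -0.68 on Cmpd17b (edgeR adjusted p = 0.04623), the latter kept in 10 of 18 refits. The calls of Slc22a17, Ftl1 and Atp7b in both comparisons, and that of Tfrc on vehicle, were kept without any 1 library. Cmpd17b changed 0 of the 12 in either strain.

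Of 18 other p53 target genes, relatives of Cdkn1a in that pathway, 0 were called in any comparison by edgeR, with medians of 0.10 on vehicle and -0.10 on Cmpd17b for the strain difference. DESeq2 called Fas higher and Tnfrsf10b lower in the strain difference on Cmpd17b. Acute phase genes had 2 higher calls among 11 tested on vehicle, where 5.82% of all genes were called higher. C3, the central complement component, was at 4.85 ± 1.70 (SD, n = 4) and 28.6 ± 42.3 CPM (SD, n = 5), with a log2 fold change of 2.56 (edgeR adjusted p = 0.02716). Its BPH/2J values ran from 6.16 to 104 CPM, and its call held in 14 of 18 refits, with a log2 fold change of 1.004 and an adjusted p of 0.1254 without BPH/2J vehicle replicate 2. DESeq2, and edgeR with replicates 1, 3 and 5 alone, called Hpx and Saa1 and not C3. Saa1 averaged 0.350 CPM against 0.00733 CPM, and its call held in 4 of 18 refits. Orm1, the only lower call on Cmpd17b, averaged 0.641 CPM in BPN/3J and 0.00836 CPM in BPH/2J mice and kept its call in 8 of 18 refits.

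Of 6 other keratins tested, Krt10 was lower on vehicle (log2 fold change -0.59, edgeR adjusted p = 0.02268, kept in 15 of 18 refits) and Krt23 on Cmpd17b (log2 fold change -1.89, edgeR adjusted p = 0.0447, kept in 6 of 18 refits). The called share of all genes was 10.8% on vehicle and 10.4% on Cmpd17b. Of 10 proliferation genes edgeR called only Pcna, the sliding clamp of DNA replication. DESeq2, and edgeR with DESeq2 size factors, also called Ccnd1, which encodes cyclin D1, lower on vehicle. Pcna was lower in BPH/2J mice on vehicle, at 19.7 ± 4.18 (SD, n = 5) against 30.7 ± 2.65 CPM (SD, n = 4), with a log2 fold change of -0.64 (edgeR adjusted p = 0.01506). On Cmpd17b its log2 fold change was -0.56 (edgeR adjusted p = 0.03834). These calls were kept in 17 and 12 of 18 refits. Cmpd17b called 0 genes of these 4 lists in either strain, by edgeR or by DESeq2.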

How the data were processed

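Kidney libraries of 19 mice were deposited by the authors as a table of expected counts (estimated counts) per gene. Per the submitters' processing notes, the tools were Trim Galore 0.6.7 for trimming and STAR 2.7.9a for alignment, and the build was GRCm39 (mm39). Counting tool, strand setting and annotation were not given in the sources used here. The values show estimated counts, since 4.63% to 10.1% of a library's values were not whole. They were rounded to whole numbers, which moved no marker by more than 0.457 counts. All 19 value columns were matched to samples by their library names.

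The 10 genes, the other gene lists and the omission of the library with the heart profile were chosen with earlier results of these data known. Groups came from the labels' strain and treatment fields. The labels do not state whether mice shared litters or cages.

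Genes were kept by filterByExpr (minimum count 10, minimum total 15), scaled by TMM and tested with edgeR 4.0.16 under R 4.3.3 (robust quasi-likelihood, 1 coefficient per group, 18 libraries, biological coefficient of variation 0.251), with Benjamini-Hochberg adjustment over 16421 genes and calls at an adjusted p under 0.05. Strain differences are BPH/2J minus BPN/3J, and treatment differences Cmpd17b minus vehicle. Intervals are 95%. Similar genes were ranked by Pearson r of log2 CPM (prior count 2), predicted loci left out, 3 per marker. From each other list, up to 4 called genes with the smallest p were named per comparison. Pairs of markers were tested with 100000 permutations, two-sided. The fit was tested on simulated data.

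Alternatives were DESeq2 1.42.0, limma-voom (limma 3.58.1), DESeq2 size factors in edgeR, no filter, 1 CPM in 4 libraries, all 19 libraries, a fit of the compared groups only, a non-robust fit and leaving out each library. BPH/2J vehicle mice reduced to replicates 1, 3 and 5 were added after seeing the data. Lengths and overlapping genes came from GENCODE M21 (GRCm38), an earlier build, and upstream sequences from RefSeq (GRCm38.p6).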

Additional observations from a re-analysis of the deposited data

Results flagged for a closer look

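In all, 4 values lay far from the rest of their group by Dixon's test at the 95% level, among 40 combinations of a marker and a group, of which chance alone would flag about 1 in 20. Lcn2 in BPH/2J vehicle replicate 2 was at 11.5 CPM, with the next mouse at 3.21 CPM. Sox9 in the same library was at 2.26 CPM, with the next mouse at 0.822 CPM. Sox9 in BPN/3J Cmpd17b replicate 2 was at 0.830 CPM against 0.530 CPM for the next, and Krt20 in BPN/3J Cmpd17b replicate 5 was at 0.543 CPM against 0.194 CPM.

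The library with the heart profile, which entered only the alternative fit of all 19 libraries, held 3 markers above every mouse on vehicle. Before TMM scaling Cp was at 145 CPM there, against at most 89.4 CPM, Sox9 at 3.78 CPM against 2.26 CPM, and Cdkn1a at 12.1 CPM against 9.58 CPM.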

How the results depend on the processing

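Clu and Cp were called higher in BPH/2J mice under all 27 alternatives in both strain comparisons. Their edgeR, DESeq2 or limma adjusted p ran from 1.683e-05 to 0.0342 for Clu and from 7.871e-09 to 0.03948 for Cp on vehicle, and from 0.0007451 to 0.02607 and from 1.502e-06 to 0.003481 on Cmpd17b. The number of markers called on vehicle ranged from 2 to 4 when 1 library was left out, with 4 (Lcn2, Clu, Cp and Krt18) without BPH/2J vehicle replicate 1, and was 2 in each such refit on Cmpd17b. Without BPH/2J vehicle replicate 1, 2037 of all 16341 genes tested were called on vehicle, against 1766 of 16421 in the main fit. No marker was called for Cmpd17b or the interaction under any alternative run. Of 1046 single-gene values, 1018 kept direction and side of the threshold, 4 gained a call and 24 reversed, none of which was called.

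With BPH/2J vehicle mice reduced to replicates 1, 3 and 5, log2 fold changes reversed to -0.012 for Lcn2, -0.050 for Sox9 and -0.051 for Cdkn1a between strains on vehicle, and to 0.070 for Havcr1, 0.18 for Lcn2, 0.020 for Clu and 0.29 for Cdkn1a for Cmpd17b in BPH/2J mice. With all 19 libraries they reversed to -0.11 for Krt8 and 1.27 for Sox9 between strains on Cmpd17b, and to 0.19 for Clu, 0.26 for Cp, 0.60 for Sox9 and 0.28 for Cdkn1a for Cmpd17b in BPH/2J mice. With limma-voom Sox9 was at 0.042 for Cmpd17b in BPN/3J mice. The cause was not tested. Leaving out 1 library gave Sox9 -0.076 to 0.92 between strains on vehicle and -0.41 to 0.036 on Cmpd17b, Clu -0.22 to 0.14 and Cdkn1a -0.26 to 0.047 for Cmpd17b in BPH/2J mice, and Krt20 -0.32 to 0.64 and Sox9 -0.32 to 0.24 for Cmpd17b in BPN/3J mice. Krt20 had too few counts for a test in 3 of 18 such refits (without BPH/2J vehicle replicate 2, replicate 4 or BPN/3J Cmpd17b replicate 5) and with BPH/2J vehicle reduced to 3 mice. The filter of 1 CPM in 4 libraries removed Krt20, Sox9 and Fgb, and the fit of compared groups only removed Krt20 and, in part of the comparisons, Fgb.

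Krt20, Sox9 and Fgb had few counts, and their intervals span several-fold. That of Lcn2, 0.40 to 2.99 between strains on vehicle, was wide as well. The part of depth in these widths was not tested. No paired analysis was possible because the labels give the groups no shared replicate numbers.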
